A study of Ciona robusta with 6 samples.

Results

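*Otx*, *Six3/6*, *Onecut*, *Gsx* and the homolog of *NKX2-1* are 5 homeobox genes grouped here as regulators of the anterior neural plate (ANP) and brain. Their gene models, KH2012:KH.C4.84, KH2012:KH.C10.367, KH2012:KH.C6.185, KH2012:KH.C2.917 and KH2012:KH.C10.338, were taken by identifier from the 16526 models counted in embryos of the tunicate *Ciona robusta*. The data are 6 polyA RNA libraries of ANP lineage cells from wildtype embryos. In 3 libraries the embryos had been electroporated with *Dmrt>GFP* together with *Dmrt>Lhx3/4*, which misexpresses the LIM homeobox factor *Lhx3/4*, and in the other 3, the controls, with *Dmrt>GFP* and no *Lhx3/4* transgene. All embryos carried the GFP reporter, and GFP-positive cells were collected by FACS after dissociation. The *Dmrt* enhancer drives both transgenes in the ANP lineage, transgenes delivered by electroporation are inherited as a mosaic, and the counts do not separate transgene reads from reads of the endogenous *Lhx3/4* gene.

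Homeobox genes encode transcription factors that bind DNA through a homeodomain, and combinations of them divide the neural plate into regions. In the *Ciona* larva the posterior rows of the ANP form the anterior sensory vesicle, a part of the brain, while the anterior rows form the adhesive palps. *Otx* acts early and broadly in the anterior neural lineage, *Six3/6* marks the anterior brain, and *Onecut* and *Gsx* are active in brain lineages that include photoreceptor precursors. In vertebrates the corresponding families act in the forebrain and midbrain (*Otx*), the forebrain and eye (*Six3* and *Six6*), the retina and differentiating neurons (*Onecut*), the ventral telencephalon (*Gsx*), and the ventral forebrain, thyroid and lung (*NKX2-1*). The comparison asks which of these factors held their level, fell or rose in ANP cells that contained *Lhx3/4*.

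Reads assigned to genes came to 52.6 to 71.2 M per library. Levels are given as CPM, reads of a gene relative to the size of its library (scaled by the TMM method of edgeR), and errors are the SD over 3 libraries. CPM is not corrected for transcript length, so levels are compared between groups within a gene and not between genes. The test was the quasi-likelihood F test of edgeR on the raw counts of 13641 genes with at least 100 reads in total, and all 5 regulators passed this filter. A gene was called at a Benjamini-Hochberg adjusted p under 0.05 over all tested genes where the log2 fold change also exceeded 0.58 in either direction. A second fit added the replicate number as a blocking term, since libraries of the same number in the 2 groups deviated from their group means together. *Lhx3/4* itself (KH.S215.4), which checks the labels, had 644, 617 and 541 CPM in *Lhx3/4* replicates 1, 2 and 3, and 39.3 ± 12.2 CPM in the controls (SD, n = 3).

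With *Lhx3/4*, 3 of the 5 regulators fell, namely *Six3/6*, *Onecut* and *Gsx*, and neither *Otx* nor the *NKX2-1* homolog passed the test. Among all tested genes 2.92% were called down and 1.85% up (edgeR). Residual levels in *Lhx3/4* cells, as a share of the control mean, were 5.04% for *Onecut*, 9.95% for *Six3/6*, 35.1% for *Gsx* and 53.7% for *Otx*. The *NKX2-1* homolog was the one regulator with a higher level in *Lhx3/4* cells, at 13.0 times a control mean of 0.267 CPM. In all 5 the *Lhx3/4* and control libraries did not overlap, as in 21.5% of all tested genes. For 4 of the 5 the *Lhx3/4* libraries lay below all controls, against 10.6% of tested genes. The median log2 fold change was -1.51 over the 5 regulators and 0.01 over all tested genes. The paper already reports *Onecut*, *Six3/6* and *Gsx* as lowered in these libraries. The 5 were grouped with such results known, so the counts and the median describe a chosen list. With the replicate block 4 of the 5 were called down and 0 up, beside 6.94% and 4.72% of tested genes. DESeq2 called 4 down and 1 up, beside 5.47% and 3.5%.

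**Figure D1:**
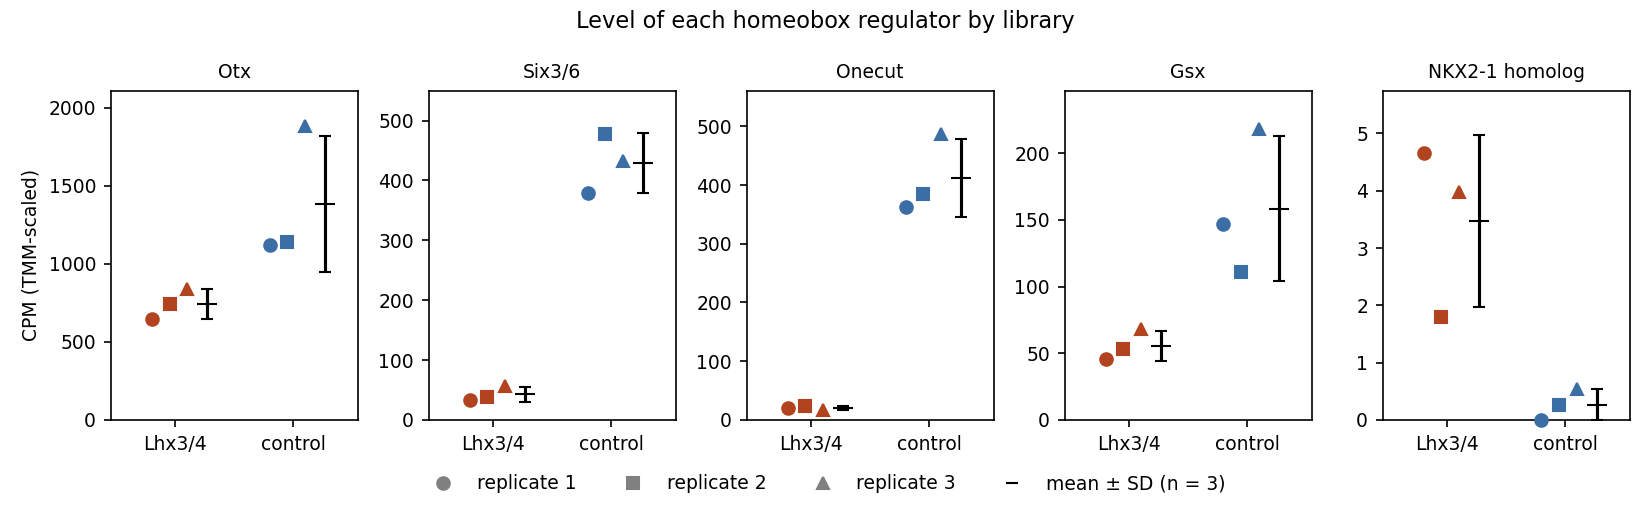
TMM-scaled CPM of each regulator in the 3 *Lhx3/4* and 3 control libraries (marker shape, replicate number), with the mean and SD of each group as bars and a separate vertical axis from 0 for each gene. The *Lhx3/4* libraries sit below all controls for *Otx*, *Six3/6*, *Onecut* and *Gsx*, with group means of 742 and 1381, 42.7 and 429, 20.7 and 412, and 55.6 and 158 CPM, and above them for the *NKX2-1* homolog, at 3.48 and 0.267 CPM.

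*Onecut* (KH.C6.185), a cut-class homeobox gene, showed the largest fold change of the 5 that was called. By limma-voom, without control replicate 3 and without both libraries of replicate number 3 the *NKX2-1* homolog had a larger estimate, at 4.80, 4.69 and 4.58 on the log2 scale beside -4.32, -4.17 and -4.05 for *Onecut*. Its level was 20.7, 24.5 and 17.0 CPM in *Lhx3/4* replicates 1, 2 and 3, against 363, 385 and 487 CPM in control replicates 1, 2 and 3. Every *Lhx3/4* library was far below the lowest control, and the residual signal rested on 1152 to 1669 reads per library, against 21152 to 32621 reads in controls, so it was well above the limit of detection. The mean was 20.7 ± 3.73 CPM in *Lhx3/4* cells and 412 ± 66.2 CPM in controls (SD, n = 3 each), 19.9-fold lower with *Lhx3/4*. The log2 fold change from edgeR was -4.31 (standard error, SE, 0.21, 95% interval -4.80 to -3.82, adjusted p = 2.0e-04 from edgeR). Only 54 of all tested genes, 0.396%, had a fold change as low or lower, counting *Onecut* itself, and 5 of them were among the 294 tested transcription factors. Within replicate numbers 1, 2 and 3 the log2 ratio of *Lhx3/4* over control was -4.10, -3.95 and -4.80, so the difference was largest in number 3, where the *Lhx3/4* library was the lowest and the control the highest of its group.

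*Six3/6* (KH.C10.367), the Six-family gene of the anterior brain, fell next most. It had 32.7, 38.1 and 57.4 CPM in *Lhx3/4* replicates 1, 2 and 3, against 378, 478 and 432 CPM in control replicates 1, 2 and 3. The groups lay well apart, and the *Lhx3/4* libraries varied more among themselves in relative terms (coefficient of variation 30.4%) than the controls did (11.6%). Its mean was 42.7 ± 13.0 CPM in *Lhx3/4* cells and 429 ± 49.7 CPM in controls (SD, n = 3 each), 10.1-fold lower with *Lhx3/4*. The log2 fold change was -3.33 (standard error 0.24, 95% interval -3.90 to -2.76, adjusted p = 6.4e-04 from edgeR). As low or lower were 139 tested genes, 1.02%, of which 19 were transcription factors. The ratios within replicate numbers 1, 2 and 3 were -3.51, -3.63 and -2.90 on the log2 scale. Here number 3 gave the smallest difference, the opposite of *Onecut*. *Six3/6* and *Onecut* were called whichever library was left out (adjusted p of at most 0.00581 and 0.00249 from edgeR).

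*Gsx* (KH.C2.917), a ParaHox-type homeobox gene, was lowered in part. It was measured at 45.5, 53.2 and 68.0 CPM in *Lhx3/4* replicates 1, 2 and 3, against 147, 111 and 218 CPM in control replicates 1, 2 and 3. The highest *Lhx3/4* library was below the lowest control, which was replicate 2, and control replicate 3 stood above the other controls. Means were 55.6 ± 11.4 CPM in *Lhx3/4* cells and 158 ± 54.4 CPM in controls (SD, n = 3 each), 2.85-fold lower with *Lhx3/4*. The log2 fold change of *Gsx* was -1.51 (SE 0.27, 95% interval -2.14 to -0.88, adjusted p = 0.0199 from edgeR). As low or lower were 798 tested genes, 5.85%, among them 66 transcription factors. The ratios within replicate numbers 1, 2 and 3 were -1.68, -1.06 and -1.67. The call was lost without *Lhx3/4* replicate 1 or 2, where the edgeR fold changes were -1.41 and -1.48 and the adjusted p 0.0741 and 0.0842, and it was kept without any one of the other 4 libraries.

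*Otx* (KH.C4.84), the orthodenticle-family gene, kept the largest share of its control level among the 4 regulators that were lower. *Lhx3/4* replicates 1, 2 and 3 had 645, 743 and 839 CPM, against 1122, 1138 and 1885 CPM in control replicates 1, 2 and 3. The groups did not overlap, but control replicate 3 was far above the other controls, which lay close together. Means were 742 ± 96.9 CPM in *Lhx3/4* cells and 1381 ± 436 CPM in controls (SD, n = 3 each). The log2 fold change of -0.90 (standard error 0.23, 95% interval -1.43 to -0.36) missed the threshold without the block (edgeR, adjusted p = 0.0799). *Otx* was called down once the block was added to the edgeR fit (-0.86, adjusted p = 0.00383) and by DESeq2 (-0.91, adjusted p = 0.00324). Ratios within replicate numbers 1, 2 and 3 were -0.80, -0.61 and -1.17 on the log2 scale, all below 0. Without control replicate 3 the edgeR fold change was -0.61 (adjusted p = 0.0665). A change of this size was common, with 1407 tested genes (10.3%) and 91 of the 294 transcription factors as low or lower, so the difference in *Otx* was not set apart from the rest of the transcriptome by its size.

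The *NKX2-1* homolog (KH.C10.338), of the family that patterns the ventral forebrain in vertebrates, had the fewest reads of the 5. It had 259, 122 and 290 reads in *Lhx3/4* replicates 1, 2 and 3, against 0, 16 and 36 reads in control replicates 1, 2 and 3. In *Lhx3/4* replicates this came to 4.66 CPM (95% exact Poisson interval 4.11 to 5.26), 1.79 CPM (1.49 to 2.14) and 3.98 CPM (3.54 to 4.47). In control replicate 1 a count of 0 gave an upper bound of 0.0633 CPM from the same interval (0.0515 CPM at a floor of 3 reads), and control replicates 2 and 3 had 0.265 CPM (0.151 to 0.430) and 0.538 CPM (0.377 to 0.744). The intervals cover counting error only. None of those of the *Lhx3/4* libraries reached those of the controls, while within each group the lowest and highest libraries also differed beyond counting error. Group means were 3.48 ± 1.5 CPM in *Lhx3/4* cells and 0.267 ± 0.269 CPM in controls (SD, n = 3 each).

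The log2 fold change of the *NKX2-1* homolog was 3.68 (standard error 1.17, 95% interval 0.96 to 6.40) and was not called (edgeR, adjusted p = 0.158), nor was it with the replicate block (3.94, adjusted p = 0.0515 from edgeR). It passed by DESeq2 (3.67, adjusted p = 0.00751). Only 74 tested genes, 0.542%, had a fold change as high or higher, and among the 294 transcription factors 3 did, itself included. The ratios within replicate numbers 1, 2 and 3, on the log2 scale after adding 0.5 CPM, were 3.37, 1.58 and 2.11. Each pair was higher with *Lhx3/4*. The interval was wide, the control group held 52 reads in all, 36 of them in replicate 3, and libraries differed within both groups.

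**Figure D2:**
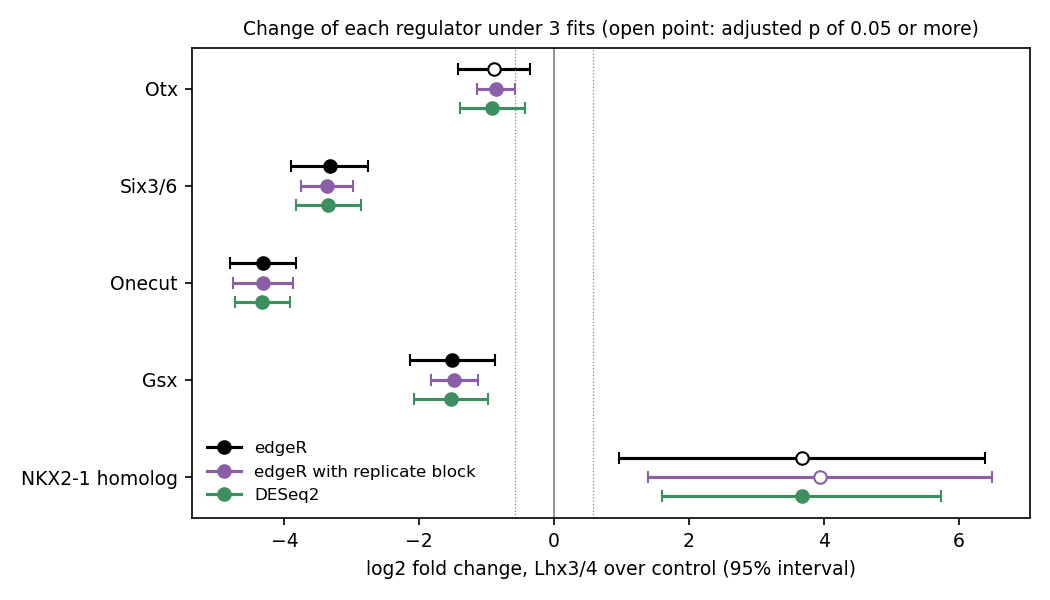
Log2 fold change of each regulator, *Lhx3/4* over control, with its 95% interval (horizontal bars) under edgeR, edgeR with the replicate block and DESeq2; open points have an adjusted p of 0.05 or more, and dotted lines mark 0.58 in either direction. The fits place *Onecut* at -4.31 to -4.33, *Six3/6* at -3.33 to -3.36 and *Gsx* at -1.48 to -1.53, *Otx* is open in edgeR without the block alone, and the *NKX2-1* homolog is open in both edgeR fits with intervals several log2 units wide.

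The 5 regulators were also compared with each other, in 10 pairs, by the log2 ratio of their CPM within each library (0.5 CPM added). In each pair the ratios of *Lhx3/4* and control libraries did not overlap, which follows in part from the unequal fold changes above, and the share among other pairs of genes was not computed. With 3 libraries against 3 an exact two-sided permutation test has 20 divisions and cannot go below p = 0.1, and all 10 pairs gave this p (also after Benjamini-Hochberg adjustment over 10 pairs). The log2 ratio of *Six3/6* to *Onecut* was 0.63 to 1.72 in *Lhx3/4* libraries and -0.17 to 0.31 in controls, with a difference of 0.93. Within replicate numbers 1, 2 and 3 this difference was 0.59, 0.32 and 1.90, largest in number 3. The ratio of *Otx* to *Gsx* was 3.62 to 3.81 in *Lhx3/4* libraries and 2.93 to 3.35 in controls, a difference of 0.61. Between the 2 strongly lowered genes and the 2 others that were lower, the differences were larger, at 3.42 for *Otx* over *Onecut*, 2.49 for *Otx* over *Six3/6*, -2.81 for *Onecut* over *Gsx* and -1.88 for *Six3/6* over *Gsx*. The ratios to the *NKX2-1* homolog were lower in *Lhx3/4* libraries for the other 4, but their size is not given, since it rests on the added 0.5 CPM where control replicate 1 had 0 reads.

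**Figure D3:**
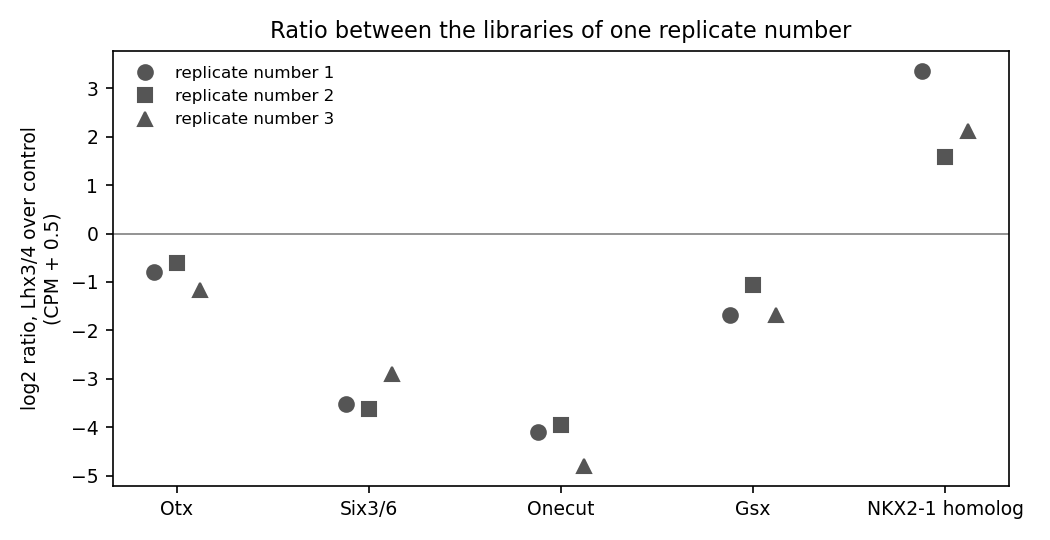
Log2 ratio of *Lhx3/4* over control CPM (0.5 CPM added) for each regulator between the libraries of replicate number 1, 2 and 3. All 3 ratios are below 0 for *Otx* (-1.17 to -0.61), *Six3/6* (-3.63 to -2.90), *Onecut* (-4.80 to -3.95) and *Gsx* (-1.68 to -1.06) and above 0 for the *NKX2-1* homolog (1.58 to 3.37).

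Within the groups the regulators did not vary as one. Among the *Lhx3/4* libraries *Otx*, *Six3/6* and *Gsx* were each lowest in replicate 1 and highest in replicate 3, a pattern that 16.8% of all tested genes shared, while *Onecut* was lowest in replicate 3 and the *NKX2-1* homolog lowest in replicate 2. *Lhx3/4* was at its highest in replicate 1 (644 CPM) and lowest in replicate 3 (541 CPM), and whether its level bears on the residual expression was not tested. Among the controls, replicate 3 was the highest for *Otx*, *Onecut*, *Gsx* and the *NKX2-1* homolog, as for 37.5% of tested genes, and replicate 2 for *Six3/6*. As a description over the 6 libraries, which share the group difference, the profiles of *Otx* and *Gsx* lay closest (root mean square difference of centred log2 CPM 0.334), then *Six3/6* and *Onecut* (0.607), and *Onecut* and the *NKX2-1* homolog lay farthest apart (3.36).

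By the same measure, the nearest profile to each regulator was sought among 96 tested genes with a paired name. That of *Otx* was the homolog of *LAMA2*, a laminin chain (0.0597), and no other tested gene lay nearer. Next came the homolog of *PCDH18*, a protocadherin (0.0900). By edgeR *LAMA2* was not called (-0.90, adjusted p = 0.077) and *PCDH18* fell (-0.95, adjusted p = 0.0347). *Six3/6* was closest to the homolog of *SBSPON* (0.133), again with no tested gene nearer, and then to that of *CTRB2*, a chymotrypsinogen (0.195). Both fell with *Lhx3/4*, *SBSPON* with a log2 fold change of -3.18 and *CTRB2* of -3.14 (edgeR, adjusted p = 9.0e-04 and 6.3e-04). The *SBSPON* model, KH.C10.368, has the identifier next to that of *Six3/6*, KH.C10.367, and whether the models overlap was not tested.

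For *Onecut* the nearest named genes were the homologs of *MSX2* (0.402) and *CTRB2* (0.646), but 12 and 35 tested genes lay nearer. *Gsx* was near the same pair as *Otx*, *PCDH18* (0.336) and *LAMA2* (0.343), with 65 and 73 tested genes nearer, so no named gene followed *Gsx* closely. The *NKX2-1* homolog was nearest to the homolog of *FUT8*, a fucosyltransferase (0.479, 11 tested genes nearer), which rose with *Lhx3/4* by 2.62 on the log2 scale (adjusted p = 0.033 from edgeR), and to *Vsx* (0.550, 31 nearer).

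**Figure D4:**
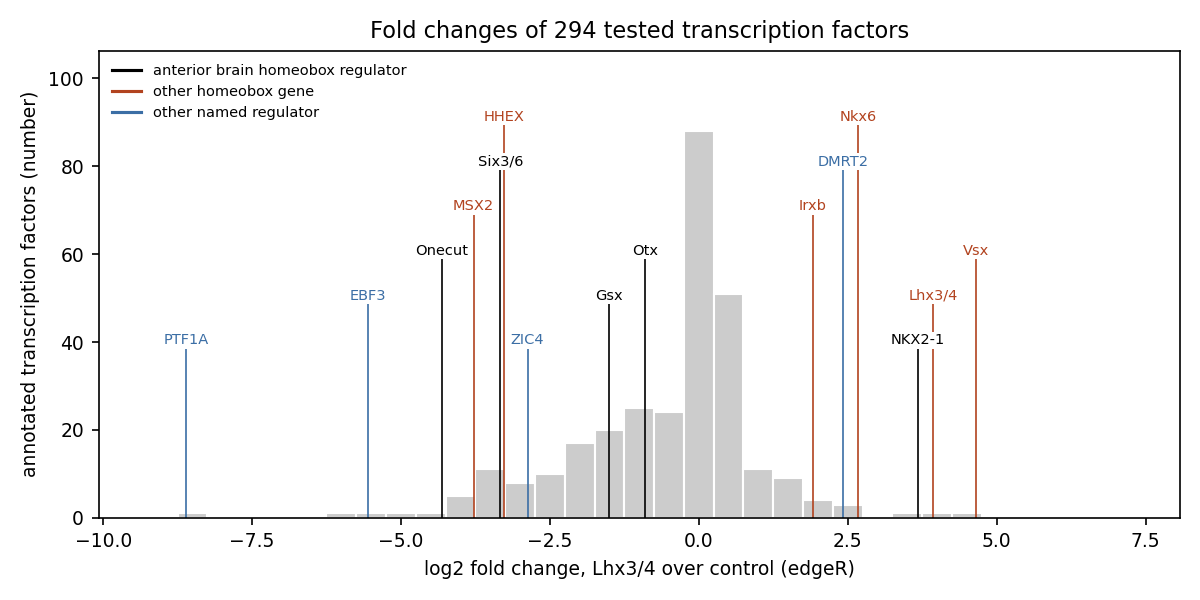
Histogram of log2 fold changes, *Lhx3/4* over control (edgeR), for 294 tested transcription factors (vertical axis, number of genes), with vertical lines of arbitrary height at the 5 regulators (black), 6 other homeobox genes (red) and 4 other named regulators (blue). The histogram peaks near 0 with a median of -0.09 and a longer lower side, where *Onecut* at -4.31 and *Six3/6* at -3.33 lie in the tail and *Gsx* at -1.51 and *Otx* at -0.90 on the shoulder, and the *NKX2-1* homolog at 3.68 lies near the upper end.

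Other transcription factors give the setting for these values. Of 327 annotated factors 294 were tested, and with the 5 regulators and *Lhx3/4* left aside, 46 of 288 fell (16%), 9 rose (3.12%) and 233 were not called by edgeR. Their median log2 fold change was -0.09, and the calls lay mainly on the lower side, beside 2.92% down and 1.85% up among all tested genes. The other homeobox genes with a paired name did not follow one direction. Apart from the misexpressed *Lhx3/4*, 2 of 5 rose, 1 fell and 2 did not pass, with a median of 1.91. Names are paired mainly for genes that the study lists as changed, so these counts describe a list chosen for change. The homolog of *MSX2* (KH.C2.957), a homeobox gene of the neural plate border in vertebrates, had 14.1, 25.7 and 24.3 CPM in *Lhx3/4* replicates 1, 2 and 3, against 233, 298 and 351 CPM in control replicates 1, 2 and 3. *MSX2* fell by 3.78 on the log2 scale (edgeR, standard error 0.28, adjusted p = 6.7e-04), between those of *Onecut* and *Six3/6*. The homolog of *HHEX* (KH.L171.10) had 1.31, 1.25 and 1.03 CPM in *Lhx3/4* libraries and 1.53, 10.6 and 22.5 CPM in controls, where replicate 1 was close to the *Lhx3/4* libraries, and it was called by DESeq2 (adjusted p = 1.7e-04) but not by edgeR (-3.27, adjusted p = 0.0847).

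Besides the *NKX2-1* homolog, 4 of the named homeobox genes were higher in all *Lhx3/4* libraries than in any control, as were 10.9% of all tested genes. Apart from *Lhx3/4* itself these were *Irxb*, an Iroquois gene, and *Nkx6* and *Vsx*, genes of the motor ganglion. *Irxb* (1.91, adjusted p = 0.0199 from edgeR) and *Nkx6* (2.67, adjusted p = 0.036 from edgeR) rose. *Vsx* had 83, 83 and 118 reads in *Lhx3/4* libraries against 6, 4 and 0 reads in controls, and with a log2 fold change of 4.65 it did not pass without the block (adjusted p = 0.0544 from edgeR) but did with it (adjusted p = 0.0228 from edgeR). Like the *NKX2-1* homolog, *Vsx* was thus a transcript with few reads in controls, and the 2 exceeded *Nkx6* and *Irxb* in fold change but not in the precision of it.

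Of 5 other named regulators 4 reached the filter, of which 3 fell and 1 was not called (edgeR). Among all tested genes 2.92% fell, and these names too come mainly from genes that the study lists as changed. The *PTF1A* homolog, a bHLH gene that acts in neural precursors, and that of *EBF3*, a factor of neuronal differentiation, were at 0.213 and 2.37 CPM in *Lhx3/4* cells and 82.8 and 111 CPM in controls, lower in relative terms than any of the 5 homeobox regulators. The *ZIC4* homolog (KH.S816.1), a zinc finger gene of the neural plate, also fell, with a value of -2.87 on the log2 scale (edgeR, adjusted p = 0.00484). It belongs to a family with near-identical copies in *Ciona*, among which reads may be split. The homolog of *DMRT2* had 2.63 CPM in *Lhx3/4* cells and 0.487 CPM in controls (2.43, adjusted p = 0.148 from edgeR, and 0.0478 with the block). DESeq2 called it up (adjusted p = 0.0266). The homolog of *ASCL5*, with 2 reads over the *Lhx3/4* libraries and 88 over the controls, was below the filter.

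The sensory vesicle markers used here are the 5 regulators and the *ZIC4* homolog, so the labelled cell type could not be checked independently of the results above. Their summed level was 757 to 1000 CPM in *Lhx3/4* libraries and 2074 to 3152 CPM in controls, largely reads of *Otx*. The *NKX2-1* homolog added little to this sum, with a mean of 0.267 CPM in controls and 0 reads in control replicate 1. Other marker genes differed between the groups in both directions, and not all of them were called. *Tyrp-1*, of pigment cells, is named in the paper as a downstream target gene within the ANP lineage. It was at 1.53 to 10.4 CPM in *Lhx3/4* libraries and 398 to 609 CPM in controls. The 2 cardiopharyngeal markers *Foxf* and *Hand.r* had 167 and 7.83 CPM in *Lhx3/4* cells and 40.5 and 2.05 CPM in controls. *Foxf* rose (adjusted p = 0.0115 from edgeR) and *Hand.r* was not called (adjusted p = 0.173 from edgeR). With the block (adjusted p = 0.0201 from edgeR) and by DESeq2 (adjusted p = 0.0269) *Hand.r* was called up. *Irxb*, which the paper also names as a primary target in that lineage, rose (adjusted p = 0.0199 from edgeR). The paper reports further primary targets as unchanged or lower, and those were not analysed here. The 2 motor ganglion markers, *Vsx* and *Nkx6*, summed to 9.19 to 25.8 CPM in *Lhx3/4* libraries and 1.54 to 3.24 CPM in controls. The 2 *TBX6* homologs of the tail muscle lineage summed to 0.0147 to 0.198 CPM in *Lhx3/4* libraries and 1.14 to 2.64 CPM in controls. Neither was called by edgeR (adjusted p = 0.0595 and 0.13), while DESeq2 called both down (adjusted p = 0.00471 and 0.0134) and the block 1 of them (adjusted p = 0.0191). The part of the marked cell types in the results was not tested. In sorted bulk samples, fewer cells that express a regulator and less RNA of it per cell cannot be told apart.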

How the data were processed

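Paired-end reads of sorted ANP cells were aligned by the authors to ci3 using HISAT2 and assigned to KH2012 gene models using HTSeq, and the authors deposited the raw counts, 1 table per library. For tool versions and the strand setting, the sources used here give none, so reads of overlapping antisense genes may be mixed. The paper names a SMART-Seq HT kit and the labels an NEB ultra-low input kit. The deposited DESeq2 table, which holds fold changes and p-values of the authors' own comparison, was not used.

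Library sizes and tests exclude the 5 summary lines of HTSeq, in which reads that did not align made up 12.1% to 19.5% of all counts. TMM factors were 0.966 to 1.06. Tests used R 4.3.3, edgeR 4.0.16, limma 3.58.1 and DESeq2 1.42.0, with 3 libraries per group. They were also run on simulated counts that held no effect of the replicate number, so that run cannot judge the block. The standard error was taken as the log2 fold change over the square root of F. Alternatives were DESeq2, limma-voom, other normalizations, filters and fold thresholds, the replicate block, and leaving out libraries.

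Deviations of log2 CPM from group means correlated at 0.65, 0.56 and 0.67 between libraries of the same number and at -0.43 to -0.14 between numbers across groups, and the block uses this pairing. What a shared number stands for is not stated in the labels. Replicates differed beyond sampling noise (chi-square over its degrees of freedom, 127 to 360). They are labelled biological replicates without their embryos of origin, so the p-values refer only to the spread among these libraries.

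The 5 regulators, the lists and the tests were chosen with earlier results of these data known. Named genes are the 5 regulators, other homeobox genes and further regulators that the paper pairs with a KH model, marker genes, and the 2 nearest named genes of each regulator, and a named gene that is not reported here was left out of these lists. Names of human genes stand for the homologs the paper assigns to a model, and the transcription factor list is the one in its supplement. No KH identifier matched the reference gene table (0), so no coordinates or sequences are given.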

Additional observations from a re-analysis of the deposited data

How the results depend on the processing

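The direction of the 5 fold changes was the same under every alternative run. *Six3/6* and *Onecut* were called under each, with fold changes of -3.36 to -3.27 and -4.33 to -4.25 over other tests, normalizations, filters and the block, and of -3.60 to -3.19 and -4.45 to -4.17 with one library left out. *Otx* passed by DESeq2 (-0.91) and with the replicate block (-0.86) and under no other alternative, and spanned -1.05 to -0.61 with one library left out. *Gsx* spanned -1.71 to -1.21 and lost its call without *Lhx3/4* replicate 1 or 2. The *NKX2-1* homolog passed by DESeq2 (3.67) alone, reached 4.80 by limma-voom, and spanned 3.09 to 4.69 with one library left out. Regulators called up numbered 1 by DESeq2, against 0 in edgeR, and those called down 2 to 3 with one library left out.

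For transcription factors, 10 were called up by edgeR, 22 by DESeq2, 30 with the replicate block and 5 to 14 with one library left out. For all tested genes, 252 were called up by edgeR, 478 by DESeq2, 644 with the block, 147 to 305 with one library left out and 166 without both libraries of replicate number 3, an alternative chosen after seeing the data. Those called down were 398 by edgeR, 746 by DESeq2, 947 with the block and 246 to 426 with one library left out. The cause of these differences was not tested. The *NKX2-1* homolog had 52 control reads in all, and its libraries differed within each group beyond counting error. What each of these adds to its wide interval was not tested.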
